A study of Mus musculus with 6 samples.

Results

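A set of 4024 promoter regions carried an ATAC-seq peak in every one of 4 libraries of mouse embryonic fibroblasts (MEFs), out of 170532 regions formed when the peaks of the 4 libraries were merged. The members were chosen by the peaks themselves: overlapping or touching peaks were merged, and a region was kept where a peak of each library overlapped it by at least 1 bp and its centre was no more than 1 kb from a transcription start site (TSS), taken for protein-coding genes. Presence and strength of the ATAC-seq peaks are therefore given as a description. Of the 5270 regions with a peak in all 4 libraries, 76.4% were members. The mitochondrial genome held 4 of them, which were left out of everything that follows, so that 4020 regions remained.

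The libraries came from MEFs of E13.5 embryos of the C57BL/6J strain. Norm-Pro was made from cells at passage 1 in 20% oxygen (normoxia) and Norm-Sen from senescent cells in 20% oxygen. Hyp-Pro was made from cells at passage 1 in 3% oxygen (hypoxia) and Hyp-Imm from cells immortalized in 3% oxygen. A further 2 libraries were ChIP-seq for the transcription factor Tfcp2l1, in senescent MEFs in 20% oxygen (ChIP Norm) and in immortalized MEFs in 3% oxygen (ChIP Hyp). There was 1 library per condition, so no difference between conditions could be set against a spread between replicates. For each ATAC-seq library the deposited file is named for another condition than the sample label: Norm-Pro is named as the immortalized hypoxic sample, Norm-Sen as the proliferating hypoxic one, Hyp-Pro as the proliferating normoxic one and Hyp-Imm as the senescent normoxic one. Membership did not depend on these labels, because a region had to be open in all 4 libraries.

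In ATAC-seq the Tn5 transposase inserts where DNA is not wrapped in nucleosomes, and promoters of active genes are among the places it reaches most easily. Many mammalian promoters of broadly used genes lie in CpG islands, stretches rich in CG dinucleotides that tend to stay free of nucleosomes. Proteins that bind close to the TSS there include the Sp and Klf factors at GC boxes, NF-Y at CCAAT boxes, ETS factors and NRF1, whereas AP-1 and TEAD proteins are best known from enhancers of fibroblasts.

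The sequences just upstream of strong members show these elements directly. The 4 lines that follow are, in order of strength, the strongest members whose 120 bp upstream of the nearest TSS lay inside the region and held no annotated exon, members of repeated sequence aside. They lay on GRCm38 at chr13:119488384-119488503 (minus strand), chr4:3938768-3938887 (plus strand), chr11:20543133-20543252 (plus strand) and chr11:94211334-94211453 (plus strand). Each is printed 5′ to 3′ in the direction of transcription and ends at the base before the TSS. Capitals mark GC boxes (GGGCGG, or CCGCCC when read on the other strand) and, in Tob1, a TATA box (TATAAA).
3110070M22Rik: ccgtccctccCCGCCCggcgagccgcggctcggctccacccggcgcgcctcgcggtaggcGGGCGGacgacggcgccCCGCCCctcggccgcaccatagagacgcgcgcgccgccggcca
Chchd7: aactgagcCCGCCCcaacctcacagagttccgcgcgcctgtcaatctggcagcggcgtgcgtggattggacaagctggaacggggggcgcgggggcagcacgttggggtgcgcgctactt
Sertad2: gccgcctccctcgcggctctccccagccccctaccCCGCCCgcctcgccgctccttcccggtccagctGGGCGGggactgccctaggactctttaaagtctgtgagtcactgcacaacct
Tob1: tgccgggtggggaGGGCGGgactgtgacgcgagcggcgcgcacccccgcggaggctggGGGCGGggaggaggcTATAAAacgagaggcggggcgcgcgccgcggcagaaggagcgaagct

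The next 4 are the strongest such members with a CCAAT box, which promoters open in all 4 libraries held more often than those open in 3. They lay at chr8:69996385-69996504, chr17:24960690-24960809, chr7:105400055-105400174 and chr2:11777583-11777702, all on the minus strand of GRCm38. Capitals mark the CCAAT box, searched as CCAAT with A or G before it and C or G after it on either strand, together with GC boxes. Counted from the TSS, the CCAAT box started at -36 bp in Gatad2a (a subunit of the NuRD chromatin remodelling complex), -29 bp in Jpt2 and -54 bp in Fam160a2. Fbh1, a DNA helicase gene, held it at -104 and at -51 bp.
Gatad2a: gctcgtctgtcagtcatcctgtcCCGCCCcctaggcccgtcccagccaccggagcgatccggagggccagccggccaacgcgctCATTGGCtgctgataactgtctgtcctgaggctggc
Jpt2: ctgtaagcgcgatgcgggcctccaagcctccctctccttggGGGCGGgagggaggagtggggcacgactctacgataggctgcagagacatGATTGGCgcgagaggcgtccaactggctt
Fam160a2: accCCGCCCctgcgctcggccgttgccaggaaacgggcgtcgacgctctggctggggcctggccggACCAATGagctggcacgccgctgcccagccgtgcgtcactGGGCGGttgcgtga
Fbh1: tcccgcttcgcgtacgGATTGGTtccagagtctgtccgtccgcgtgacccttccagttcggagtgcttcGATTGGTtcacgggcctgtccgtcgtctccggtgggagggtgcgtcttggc

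The members served 4433 of 21938 protein-coding genes, which is 20.2% of them. Genes were placed in classes by the highest number of libraries, 0 to 4, with a peak in any 1 merged region centred within 1 kb of their TSS. Class 0 held 8619 genes, class 1 3492, class 2 2352 and class 3 3042, and class 4 holds the genes of the members. A class counts peaks near the 5′ end of the gene record, so a gene that starts from another TSS can fall in class 0 or 1 although its used promoter is open: with the TSS of any transcript the share in class 4 was 22.1%. By chromosome the share ran from 15.9% of the genes on chromosome 7 to 28.1% on chromosome 12 among the autosomes. On the X chromosome 60 of 948 genes (6.33%) were in class 4, and on the Y chromosome 0 of 183.

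Members were wide and centred on the TSS. Their median width was 417 bp, with quartiles of 326 and 536 bp, and the range ran from 124 to 1564 bp. Promoter regions open in 3 libraries had a median width of 292 bp and the 1213 regions open in all 4 libraries away from a TSS one of 339 bp. The widest members were those of Sp1, a GC box factor, at chr15:102405333-102406896 (1564 bp), of the ubiquitin conjugating enzyme Ube2d3 (1478 bp) and of the calcium pump Atp2b1 (1339 bp). The centre lay within 200 bp of the nearest TSS in 78.8% of members. Just inside the 1 kb limit stood the regions of Eif4a1 (984 bp), Ppp1r3b (985 bp) and Atxn2l (999 bp), and just outside it those of Egr1 (1002 bp), Cpt1a (1007 bp) and Zbtb7b (1010 bp). The weakest peaks that still counted were all in Hyp-Imm, with a −log10 q of 1.36 at Gcdh, 1.68 at E2f8 and 1.75 at Rpl37.

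A member often served more than 1 gene. Of the 4020 regions, 3456 had 1 protein-coding TSS within 1 kb, 544 had 2 and 20 had 3 or more. In 361 regions (8.98%) the TSSs belonged to a head-to-head pair transcribed in opposite directions, with a median gap of 155 bp. Examples are Idh1, isocitrate dehydrogenase, with the lipid kinase gene Pikfyve (183 bp apart), Sesn1, a stress-response gene, with Cep57l1 (64 bp), and Apaf1, the core of the apoptosome, with Ikbip (170 bp). Among all genes, the share with a divergent protein-coding neighbour rose by class: 1.33% in class 0, 4.10% in class 1, 8.04% in class 2, 11.2% in class 3 and 15.8% in class 4. Class 4 exceeded class 3 by 4.61 percentage points, with a 95% Newcombe interval of 3.05 to 6.15, and classes 0 to 3 together by 11.3 points (10.2 to 12.4). A divergent noncoding TSS was present for 6.34% of class 4 genes and 4.14% of class 3 genes, a difference of 2.20 points (1.17 to 3.20). These intervals and those that follow cover counting error over genes or regions only, which are not replicates of a condition, and neighbouring genes share a region. A class counts any region centred within 1 kb of the TSS, and a divergent neighbour was defined by the same distance. A gene with such a neighbour can thus take its class from the neighbour's region. Part of the rise by class is built into these definitions, and how much was not tested.

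The TSS windows of member genes were rich in CpG. A window ran from 150 bp upstream to 50 bp downstream of the TSS and was called CpG-rich at an observed to expected CpG ratio above 0.6 with GC above 50%. Of the class 4 genes 84.0% had such a window, against 78.2% in class 3, 63.2% in class 2, 39.1% in class 1 and 9.26% in class 0. Class 4 exceeded classes 0 to 3 together (34.4%) by 49.6 points (48.3 to 50.8) and class 3 by 5.83 points (4.02 to 7.67). The median GC content of the window was 66.5% in class 4 and 48% in class 0. Read the other way, 38.2% of the 9751 genes with a CpG-rich window were in class 4 (3724 genes), compared with 5.82% of the 12187 genes without one (709 genes). GC content also affects how well DNA is amplified and sequenced, and its part in these shares was not tested.

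**Figure D1:**
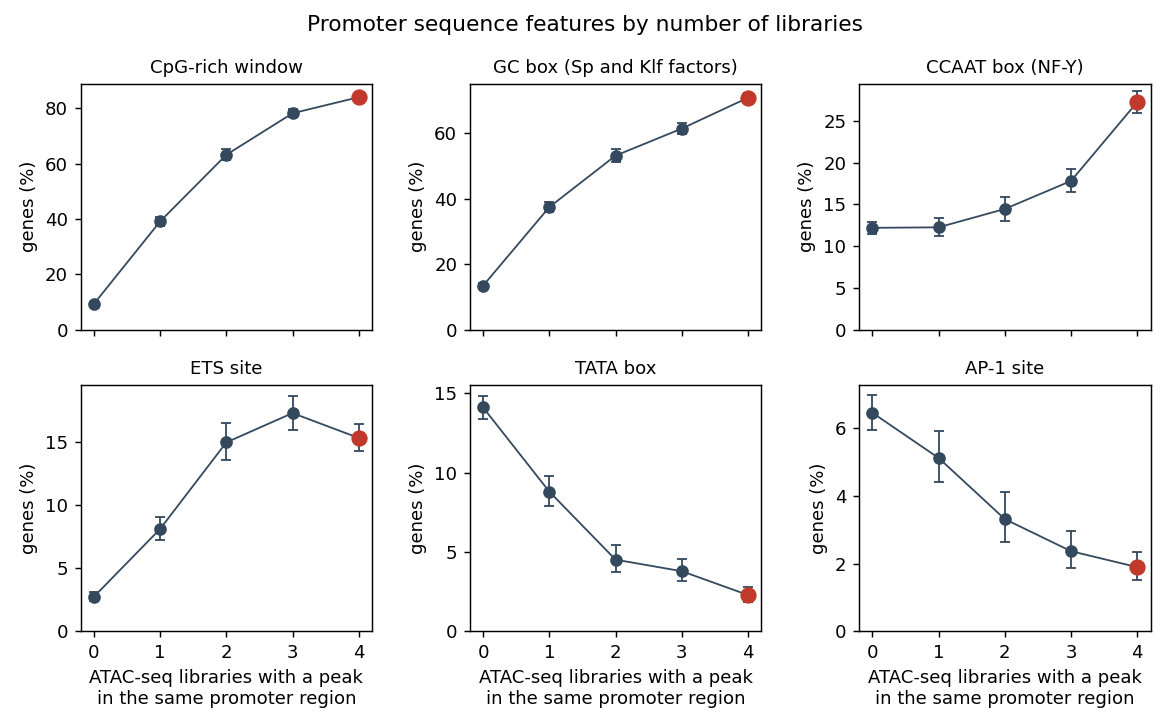
Share of protein-coding genes (%, vertical axes) with each promoter feature in gene classes 0 to 4, the number of ATAC-seq libraries with a peak in the same promoter region (horizontal axes); bars on the points are 95% exact Clopper-Pearson intervals and the red point is class 4, the genes of the members. CpG-rich windows climbed from 9.26% to 84.0% and the CCAAT box from 12.2% to 27.3%, while the TATA box fell from 14.1% to 2.28%.

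Of the 15 motifs searched in the same windows on both strands, the GC box and the CCAAT box were the elements in which member genes exceeded the class just below them. The GC box stood in 70.8% of class 4 windows, 61.4% of class 3 windows and 39.8% of all promoters, and class 4 exceeded class 3 by 9.43 points (7.24 to 11.6). Among CpG-rich windows alone, the shares were 76.7% and 69.2%, a difference of 7.47 points (5.18 to 9.78). The CCAAT box stood in 27.3% of class 4 windows, 17.8% of class 3 windows and 16.3% of all promoters. Here class 4 exceeded class 3 by 9.46 points (7.55 to 11.3), and by 10.4 points (8.25 to 12.5) among CpG-rich windows (28.4% and 18%). The difference was smaller, 4.53 points (1.64 to 7.45), with peaks at a −log10 q of at least 5, and 3.05 points (1.61 to 4.46) in the 100 bp around the TSS, a window that leaves out part of the stretch where the box is most frequent. Unlike the GC box, the CCAAT box was nearly as rare in classes 1 (12.3%) and 2 (14.5%) as in class 0 (12.2%). Both elements occurred together in 19.4% of class 4 windows and 11.1% of class 3 windows.

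Other elements were level with or below class 3. The ETS site (CCGGAAG) was in 15.3% of class 4 and 17.3% of class 3 windows, a difference of -1.97 points (-3.70 to -0.276), against 9.46% of all promoters. The NRF1 site (CGCATGCG) was in 3.14% and 4.04%, a difference of -0.908 points (-1.80 to -0.0577). Neither difference held under every setting. With genes open in Norm-Pro, Norm-Sen and Hyp-Pro set against genes open in 2 of those libraries, that is without Hyp-Imm, the ETS difference was 0.133 points (-1.52 to 1.72) and the NRF1 difference 0.244 points (-0.595 to 1.00). The ETS interval also included 0 without Norm-Pro (-0.978 points), without Hyp-Pro (-1.30), with equal numbers of peaks, with stronger peaks alone and in 200 bp upstream of the TSS, and the NRF1 interval in 200 bp upstream (-0.464 points). The TATA box was in 2.28% of class 4, 3.78% of class 3 and 8.41% of all promoters, a difference between classes 4 and 3 of -1.5 points (interval -2.34 to -0.715). For the CRE (TGACGTCA), the YY1 site (AANATGGCG), the E-box (CACGTG), the hypoxia-inducible factor (HIF) site (ACGTGC), the ZNF143 site (ACTACAAT), the AP-1 site (TGANTCA), the CTCF core (AGGTGGCAG or AGGGGGCGC), the E2F site (TTTCCCGC or TTTGGCGC), the TEAD site (CATTCCA) and the Tfcp2l1 consensus, the interval of the difference between classes 4 and 3 included 0. The HIF site was in 6.54% of class 4 windows and 7.17% of class 3 windows, a difference of -0.624 points (-1.82 to 0.530), but with peaks at a −log10 q of at least 5 the difference was -2.14 points (-3.67 to -0.534). The AP-1 difference was -0.472 points (-1.18 to 0.185), and its interval lay below 0 without Hyp-Pro (-0.908 points) and without Hyp-Imm (-0.955 points). The TEAD difference was -0.374 points (-0.936 to 0.139), and its interval lay below 0 without Norm-Sen (-0.677 points). The Tfcp2l1 consensus, allowed 2 mismatches, was in 0.857% of class 4 windows, 0.822% of class 3 windows and 0.857% of all promoters. A match is a word in the window and not a bound site.

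The 2 elements also had a place relative to the TSS. The CCAAT box was most frequent from 60 to 40 bp upstream, where 6.05% of class 4 genes and 3.91% of class 3 genes had a match in that 20 bp bin. The GC box was most frequent in the 20 bp just upstream of the TSS, in 21.0% of class 4 and 17.1% of class 3 genes. In class 0 the TATA box had its peak from 40 to 20 bp upstream (5.15% of genes), a bin in which 0.587% of class 4 genes had one. That bin was also the highest in class 4, little above the 0.541% from 300 to 280 bp upstream.

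**Figure D2:**
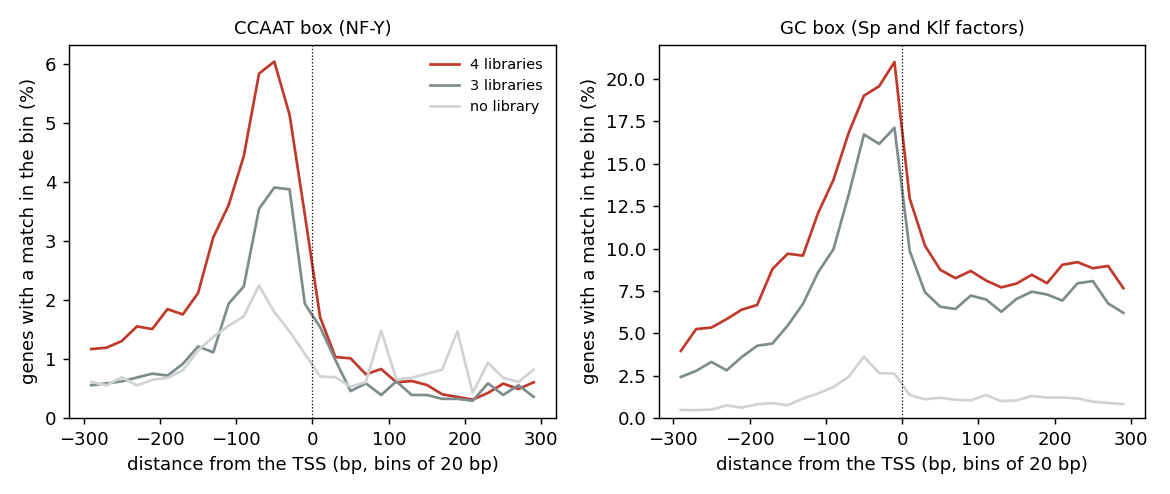
Share of genes (%, vertical axes) with a motif match in each 20 bp bin around the TSS (horizontal axes, bp, negative upstream), one panel per motif and one line each for classes 0, 3 and 4. The CCAAT box line of class 4 reaches 6.05% between -60 and -40 bp, above the 3.91% of class 3, and the GC box line reaches 21.0% just upstream of the TSS.

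Within the members, the same elements went with peak strength. Each member was ranked in each library by the −log10 q of its strongest peak, as a percentile among the 4020 members with 100 the strongest, and the lowest of its 4 ranks was used to form 4 groups of 1005 regions. In the 200 bp around the region centre the CCAAT box was in 20.0% of the weakest group, then 22.7%, 28.7% and 33.2% of the strongest, a difference of 13.2 points between the outer groups (9.39 to 17.0). The GC box went from 72.5% to 82.8%, a difference of 10.2 points (6.62 to 13.8). The NRF1 site went the other way, with a difference of -1.49 points (-2.79 to -0.279), and for the other 12 motifs the interval included 0. Median GC content was 70% in the weakest and 69% in the strongest group. Median width went from 350 to 505 bp, but the window searched was 200 bp in each.

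Members differed in the same letters from the regions open in all 4 libraries away from a TSS. Away from a TSS, or distal, means more than 1 kb from the 5′ end of a protein-coding gene record. With the TSS of any transcript there were 4484 members in place of 4024. Part of these distal regions thus lay within 1 kb of another annotated start of a protein-coding gene. In the 200 bp around the centre, the GC box was in 77.0% of members and 49.3% of those 1213 regions, a difference of 27.7 points (24.6 to 30.8). The CCAAT box was in 26.1% and 15.3% (10.9 points, 8.38 to 13.3) and the ETS site in 13.9% and 5.77% (8.08 points, 6.30 to 9.70). The AP-1 site was in 2.04% of members against 12% of the distal regions, a difference of -9.91 points (-11.9 to -8.14). The TEAD site (0.871% and 2.31%, -1.44 points, -2.47 to -0.655) and the CTCF core (2.34% and 3.54%, -1.21 points, -2.48 to -0.168) were also rarer in members. Median GC content in these windows was 69.5% for members and 64% for the distal regions.

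The point of highest signal sat just upstream of the TSS. The summit of the strongest peak lay at a median of -25 bp in Norm-Pro, -28 bp in Norm-Sen, -23 bp in Hyp-Pro and -19 bp in Hyp-Imm, signed by gene direction. It was upstream of the TSS in 59.6%, 59.3%, 56.0% and 56.2% of members. For the median of the 4 summits the share was 60.2%, with a 95% Clopper-Pearson interval of 58.6 to 61.7%. With the TSS of any transcript it was 73.4%, and for the centre of the region in place of the summit it was 52.3%. Between 39.4% and 42.6% of summits fell in an annotated exon, 9.88% to 10.7% in an intron and 47.0% to 50.7% outside genes. Summits of the same member in a pair of libraries were a median of 49 bp (Norm-Pro and Norm-Sen) to 59 bp apart. All 4 summits fell within 50 bp of each other in 503 members (12.5%), and in 340 they spread over more than 300 bp.

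**Figure D3:**
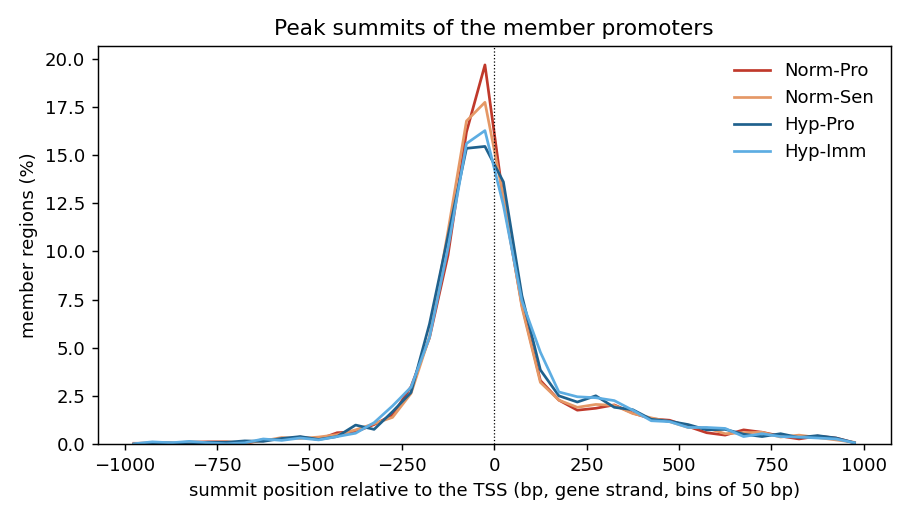
Distribution of the distance from the TSS to the summit of the strongest peak (horizontal axis, bp, negative upstream) as a share of the 4020 members (vertical axis, %), one line per ATAC-seq library. The 4 lines peak close to the TSS, with medians of -25, -28, -23 and -19 bp.

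Members held most of the strongest peaks of each library. They contained 6.67% of the 69122 peaks of Norm-Pro, 7.61% of the 61408 of Norm-Sen, 9.97% of the 47523 of Hyp-Pro and 12.2% of the 37770 of Hyp-Imm. Of the 1000 peaks with the highest −log10 q, 67.3%, 66.7%, 67.7% and 59.8% lay in members. Median fold enrichment over the local background of the same library was 6.32, 5.65, 6.29 and 5.82. Median −log10 q was 9.30, 8.69, 7.88 and 4.60 in members, against 3.41, 3.72, 3.84 and 2.91 over all peaks of those libraries. The member values take the strongest peak of each region, whereas the values over all peaks take every peak. Strongest peaks of the distal regions open in all 4 libraries had medians of 7.95, 7.63, 7.10 and 4.43, nearer to those of members. Promoter regions open in 3 libraries had 5.82, 5.49, 5.19 and 3.60, each over the regions with a peak in that library. Hyp-Imm, with the fewest peaks, set the edge of the group: of the 3267 promoter regions open in 3 libraries, 2327 (71.2%) lacked a peak in Hyp-Imm, 437 in Hyp-Pro, 310 in Norm-Sen and 193 in Norm-Pro. Without that library 6349 promoter regions were open in the 3 others. How far its number of peaks and its labelled state each account for this cannot be told apart with 1 library.

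The highest-ranked members included repeated sequence. Of the 12 members with the highest lowest rank, 7 were predicted genes or Duxf3 in arrays of similar copies: Gm10800, Gm10717, Gm10801, Gm21738, Gm10722 with 2 regions, and Duxf3, a homeobox gene of a repeated array. Values are given throughout in the order Norm-Pro, Norm-Sen, Hyp-Pro, Hyp-Imm. Gm10717 had folds of 20.3, 18.6, 21.0 and 23. Of the 49-base words in these 7 regions 22.4% to 91.1% occurred once in GRCm38, so reads could come from other copies. Copies absent from GRCm38 are not counted. Over all members 3891 (96.8%) had only unique words and 5 had fewer than 50%, namely 2 regions of Gm10722 and 1 each of AW822073, Duxf3 and Gm10719. The other 5 of the 12 were at least 98.5% unique. The region shared by 3110070M22Rik and Tmem267 (chr13:119488229-119489146) had folds of 13.6, 8.85, 9.91 and 9.92. Chchd7 with Plag1, a zinc finger transcription factor (chr4:3938461-3939071), had 11.8, 8.82, 12.4 and 10.9. The nuclear receptor gene Nr2c2 had 8.86, 9.20, 9.85 and 11.1, Sertad2 8.56, 8.24, 9.04 and 9.05, and Tob1, which encodes an antiproliferative protein, 8.24, 8.08, 9.46 and 8.94.

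Most members did not keep their rank. The 4 ranks of a member spanned a median of 43.2 percentile points, and in 270 members (6.72%) more than 75. Only 208 (5.17%) ranked above 75 in all 4 libraries and 120 below 25 in all 4. As a description, Spearman's rho between libraries over the 4020 members ran from 0.325 (Norm-Sen and Hyp-Imm) to 0.552 (Norm-Pro and Norm-Sen), and over the 1213 distal regions from 0.461 to 0.603. The points of a pair share base composition and position.

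Split by oxygen, 719 members (17.9%) ranked higher in both 20% libraries than in both 3% libraries, and 756 (18.8%) the reverse. Over the 5233 nuclear regions open in all 4 libraries, ranked among themselves, these shares were 17.8% and 18.8%. Split by time in culture, 622 members (15.5%) ranked higher in both passage 1 libraries than in both late ones, and 616 (15.3%) the reverse, beside 15.3% and 15.7% over all those regions. The remaining split, Norm-Pro and Hyp-Imm against Norm-Sen and Hyp-Pro, corresponds to no labelled condition and gave 649 (16.1%) and 655 (16.3%), beside 16.1% and 16.1%. The oxygen split thus held 36.7% of members, the split by time in culture 30.8% and the third split 32.4%. The 5233 background regions include the 4020 members themselves. Their shares could therefore not lie far from those of the members, and the closeness does not set members against other regions. Under the conditions of the file names the same libraries form the oxygen pairs but with 20% and 3% exchanged, so that each oxygen direction turns round, and the passage 1 and late pairs become the third split.

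The clearest single cases by oxygen are named by the size of the gap in rank. Dazl, an RNA-binding protein gene of germ cells, ranked at 82.1 in Norm-Pro and 82.4 in Norm-Sen but 6.72 in Hyp-Pro and 0.808 in Hyp-Imm, with folds of 8.56, 8.10, 4.55 and 3.85. Commd3, Nr4a2 (a nuclear receptor of the immediate early response) and the pair of Dbil5 and Gemin4 followed, and Nr4a2 had folds of 9.82, 7.87, 4.19 and 4.70. In the other direction Abhd8 ranked at 4.73 and 3.65 in the 20% libraries and 79.5 and 96.3 in the 3% libraries, with folds of 3.69, 3.31, 6.50 and 8.54. Sec11c, a signal peptidase subunit, Clpx, the ATPase of a mitochondrial protease, and the nuclear receptor gene Nr2f6 followed, and Clpx had folds of 4.30, 3.83, 9.43 and 6.85. In these genes the 2 pairs of libraries did not overlap, which is what chose them. Under the file names, the genes given as higher at 20% oxygen would be higher at 3%, and the reverse.

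By time in culture, Nfatc3, a calcium-regulated transcription factor, had folds of 8.10 in Norm-Pro and 8.06 in Hyp-Pro against 4.46 in Norm-Sen and 4.65 in Hyp-Imm. The chromatin remodelling ATPase Smarca5 had 9.55 and 7.69 against 4.21 and 4.79, and the histone chaperone Rbbp7 8.99 and 7.59 against 4.47 and 4.94. Aldh18a1, an enzyme of proline synthesis, was the last of these 4. Higher in both late libraries were Cnep1r1, Ruvbl1 (an ATPase of chromatin remodelling complexes), Cse1l (a nuclear export factor) and Sp3, a GC box factor. Ruvbl1 had folds of 4.40 and 4.13 at passage 1 against 6.49 and 7.03 late, and Sp3 4.84 and 4.43 against 6.17 and 7.04. Under the file names these pairs are not passage 1 and late.

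Some members stood apart in 1 library. Hyp-Imm had the widest gaps. The region shared by Slc25a40, a mitochondrial carrier, and Dbf4, the activator of the replication kinase Cdc7, had folds of 10.7, 9.28 and 11.6 in Norm-Pro, Norm-Sen and Hyp-Pro but 4.15 in Hyp-Imm. Pank3, an enzyme of coenzyme A synthesis, had 10, 9.63 and 11 against 4.37, and Stil, needed for centriole duplication, 9.45, 8.29 and 9.65 against 3.82. In the opposite direction the dynein subunit gene Dync1i2 had 4.91, 4.59 and 5.16 against 8.90 in Hyp-Imm, and the splicing factor gene Sart1 3.8, 4.20 and 3.76 against 8.21. Hyp-Pro alone was low at Cblb, a ubiquitin ligase (fold 3.8, against 8.05, 7.20 and 8.98 in Norm-Pro, Norm-Sen and Hyp-Imm), and alone high at the pair of Cyhr1 and Kifc2 (6.61, against 3.42, 3.52 and 4.01). Norm-Sen alone was high at Gde1 (6.98, against 4.92, 4.33 and 4.11) and low at the zinc transporter gene Slc30a1 (4.12, against 6.82, 9.12 and 7.39). Norm-Pro alone was high at Thumpd2 (9.02, against 5.14, 4.44 and 4.83) and low at Mfsd5 (4.69, against 6.78, 7.96 and 7.37). With 1 library each, a difference between libraries and one between conditions cannot be told apart.

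**Figure D4:**
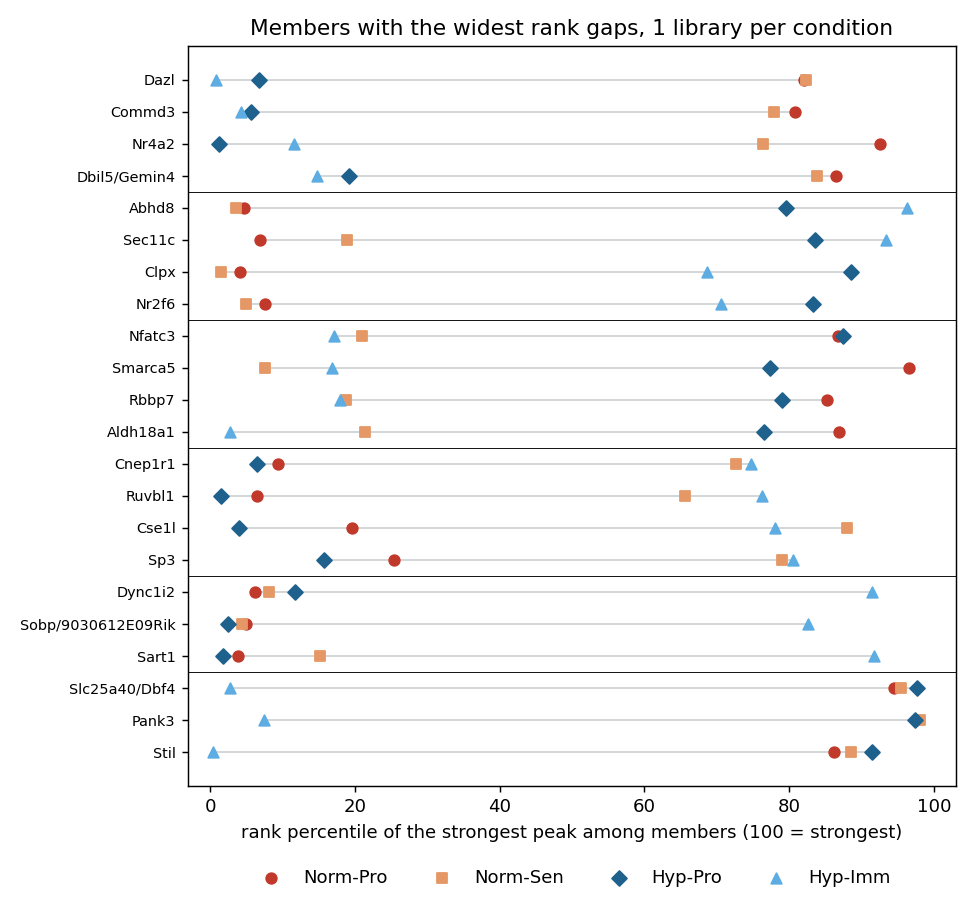
Rank of named members among the 4020 (percentile, 100 the strongest peak) in each of the 4 ATAC-seq libraries, with 1 row per member grouped by the pattern that chose it and 1 marker per library. Slc25a40 and Dbf4 ranked above 94 in Norm-Pro, Norm-Sen and Hyp-Pro and at 2.75 in Hyp-Imm, and Dazl above 82 in both 20% libraries and below 7 in both 3% libraries.

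The 36 gene lists were set beside the 20.2% of all genes in class 4, and the intervals of the small lists were wide. The list of p53 and its targets had 12 of 24 (50%, with a 95% Clopper-Pearson interval of 29.1 to 70.9%), chaperonins and heat shock proteins 31 of 66 (47.0%, 34.6 to 59.7%), RNA polymerase subunits 13 of 28 (46.4%, 27.5 to 66.1%), general transcription factors 12 of 27 (44.4%, 25.5 to 64.7%), and replication proteins with the MCM helicase 17 of 40 (42.5%, 27 to 59.1%). Splicing factors had 31 of 78 (39.7%, 28.8 to 51.5%) and proteasome subunits 17 of 48 (35.4%, 22.2 to 50.5%). Translation initiation factors had 19 of 47 (40.4%, 26.4 to 55.7%), Mediator subunits 12 of 30 (40.0%, 22.7 to 59.4%) and ubiquitin conjugating enzymes 13 of 31 (41.9%, 24.5 to 60.9%). For some other lists of genes used by every cell the interval included the share of all genes. These were cytosolic ribosomal proteins with 18 of 83 (21.7%, 13.4 to 32.1%), the respiratory chain with ATP synthase with 18 of 83 (21.7%), mitochondrial ribosomal proteins with 20 of 78 (25.6%, 16.4 to 36.8%), aminoacyl tRNA synthetases with 12 of 34 (35.3%, 19.7 to 53.5%) and nuclear pore proteins with 8 of 20 (40.0%, 19.1 to 63.9%). The lists also differed in CpG content. Among genes with a CpG-rich window, of which 38.2% were in class 4, the list of p53 and its targets had 11 of 17 (64.7%, 38.3 to 85.8%), chaperonins 28 of 48 (58.3%, 43.2 to 72.4%) and cytosolic ribosomal proteins 16 of 63 (25.4%, 15.3 to 37.9%). The intervals of splicing factors (30 of 62, 35.5 to 61.4%), replication proteins (13 of 32, 23.7 to 59.4%), RNA polymerase subunits (12 of 25, 27.8 to 68.7%) and proteasome subunits (17 of 37, 29.5 to 63.1%) included 38.2%. So did those of translation initiation factors (18 of 38, 31.0 to 64.2%), Mediator subunits (11 of 24, 25.6 to 67.2%) and general transcription factors (11 of 24, 25.6 to 67.2%). Ubiquitin conjugating enzymes had 13 of 21 (61.9%, 38.4 to 81.9%).

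Several of these members have central roles in the cell. Pcna, the sliding clamp of replication, had folds of 12.1, 8.67, 11 and 6.43, in the same order of libraries. Gins4, a subunit of the replicative helicase, had 8.48, 7.96, 9.34 and 9.31. The cyclin gene Ccna2 had 11, 7.29, 12.5 and 9.90, and the chaperone gene Hspa8 7.19, 8.02, 7.18 and 7.77. In the list of p53 targets, Rrm2b, a ribonucleotide reductase subunit, had 7.38, 7.39, 12.5 and 8.88, and Polk, a DNA polymerase for translesion synthesis, 8.96, 9.31, 9.23 and 8.70. Among hypoxia targets and glycolysis genes 11 of 26 (42.3%, 23.4 to 63.1%) were in class 4. Of those with a CpG-rich window 8 of 15 were (26.6 to 78.7%), an interval that includes the 38.2% of all genes with one. Kdm3a, a histone demethylase, had 8.28, 9.27, 8.75 and 10.2, and Higd1a had 8.70, 6.70, 7.02 and 6.21. P4ha1, a prolyl hydroxylase of collagen, had 6.98, 6.56, 11.1 and 8.28, and the glycolytic enzyme gene Eno1 5.76, 6.27, 8.45 and 7.5. Higd1a ranked higher in Norm-Pro (89.0) and Norm-Sen (80.4) than in Hyp-Pro (63.3) and Hyp-Imm (58.7). P4ha1 and Eno1 ranked the other way, and Kdm3a did not separate these pairs of libraries. Of the HIF system 2 of 8 genes (25%, 3.19 to 65.1%) were in class 4, near the share of all genes, namely Arnt, the HIF partner subunit (6.99, 9.29, 8.68 and 6.25), and the oxygen sensor gene Egln3 (6.85, 5.47, 6.15 and 5.45).

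Of the CDK inhibitors 4 of 7 were in class 4 (57.1%, 18.4 to 90.1%), an interval that includes the 20.2% of all genes. Cdkn2a encodes p16 and p19Arf from separate starts. Its member (chr4:89294527-89294926) lay at the 5′ end of the gene record, where the p19Arf transcript begins, so its values do not describe the start of p16 further downstream. It had folds of 5.33, 7.17, 5.47 and 5.08, and its rank was 65.4 in Norm-Sen and between 21.8 and 23.6 in the others. Cdkn2b had 9.09, 6.41, 4.60 and 6.17, Cdkn2c 7.51, 7.64, 4.76 and 4.94, and Cdkn2d 5.56, 6.63, 7.08 and 8.43. Cdkn1b was in class 2, Cdkn1a in class 1 and Cdkn1c in class 0.

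Several lists had few or no genes in class 4. None of 1092 olfactory receptor genes was in class 4, nor any of 105 keratins, 64 defensins or 39 Hox genes. Vomeronasal receptors had 1 of 326 (Vmn1r4), replication-dependent histones 1 of 65 (Hist1h1c), collagens 3 of 44 (Col6a2, Col1a2 and Col12a1) and senescence-associated secreted factors 1 of 33 (Vegfc). The Vmn1r4 region was shared with Nt5c3, a head-to-head neighbour whose TSS was 83 bp away. CpG content differed among these lists: a CpG-rich window was present in 1 olfactory receptor gene, 18.2% of the secreted factors, 25% of collagens, 35.4% of the histones and 46.2% of Hox genes. Among the genes with such a window, 0 of 18 Hox genes and 1 of 23 histones were in class 4, beside 38.2% of all genes with one. For collagens (1 of 11, 0.230 to 41.3%) and secreted factors (1 of 6, 0.421 to 64.1%) the interval included 38.2%. Of 12 fibroblast markers 4 were in class 4 (33.3%, 9.92 to 65.1%, which includes 20.2%; Fn1, Twist1, Vim and Col1a2), Col1a1 and Pdgfrb were in class 2, Thy1 and S100a4 in class 1, and Col3a1, Pdgfra, Prrx1 and Lum in class 0. None of 6 macrophage, 5 endothelial or 4 epithelial markers was in class 4, and of 5 neural markers only Map2 was. With so few markers the upper limits of the zero counts were 45.9%, 52.2% and 60.2%, so these lists do not tell the labelled cell type from others.

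**Figure D5:**
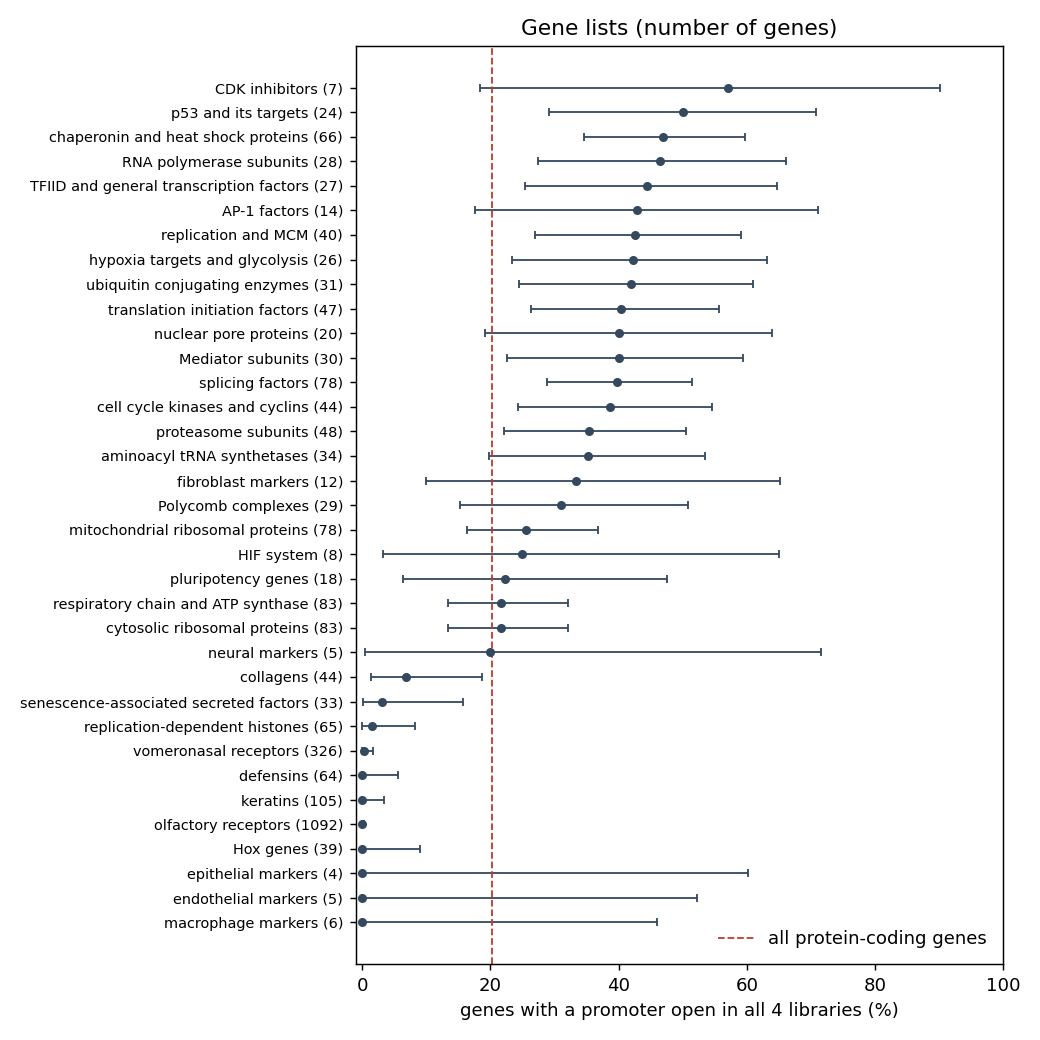
Share of the genes of each list in class 4 (%, horizontal axis) with 95% exact Clopper-Pearson intervals, 1 row per list, and a line at the 20.2% of all protein-coding genes. The list of p53 and its targets stands at 50%, cytosolic ribosomal proteins at 21.7% and Hox genes at 0.

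Of 29 genes that the study names, 10 were in class 4 (34.5%, 17.9 to 54.3%), an interval that includes the 20.2% of all genes. They were Cdkn2a, Cdkn2b, the apoptosis gene Bax, Klf4, Klf2, the Polycomb gene Bmi1, Rest, Tbx3, Stat3 and Gli2. The study chose several of them with these samples in view, so the count is a description. Stat3, the effector of LIF signalling, had folds of 6.91, 6.87, 9.72 and 6.42. Bmi1, a repressor of Cdkn2a, was weak in each library with 3.37, 3.85, 3.57 and 5.16, and Bax had 4.34, 4.60, 5.81 and 6.19. Tfcp2l1 itself, Ezh2, Hes1, Hey1 and Polr2a were in class 3, and Ldha and Trp53 were in class 0 at the 5′ end of their gene records. The other 12 were in class 1, Nanog, Pou5f1, Sox2, Esrrb, Myc, Hif1a and Vegfa among them. Of the 18 pluripotency genes 4 (22.2%, 6.41 to 47.6%) were in class 4, near the share of all genes, namely Klf2 (7.04, 5.18, 7.65 and 8.37), Klf4 (5.65, 5.51, 4.36 and 5.02), Klf5 (8.79, 6.82, 6.01 and 3.82) and Tbx3, whose fold was 4.00, 5.35, 3.91 and 4.90.

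Tfcp2l1 ChIP-seq peaks were rare at members. A peak of ChIP Norm overlapped 28 of the 4020 regions (0.697%) and a peak of ChIP Hyp 24 (0.597%), out of 393 and 612 ChIP-seq peaks. Members exceeded promoter regions open in 1 to 3 libraries, of which 35 of 15963 (0.219%) and 23 (0.144%) had a peak, by 0.477 points (0.247 to 0.792) in ChIP Norm and 0.453 points (0.245 to 0.747) in ChIP Hyp. Members are wider: per megabase covered, 15.6 and 11.5 regions had a ChIP Norm peak and 13.4 and 7.55 a ChIP Hyp peak. Members lay below the distal regions open in all 4 libraries, of which 43 of 1213 (3.54%) and 50 (4.12%) had a peak, by 2.85 points in ChIP Norm (difference -2.85, -4.06 to -1.89) and 3.53 points in ChIP Hyp (difference -3.53, -4.81 to -2.50). With the TSS of any transcript these differences were -5.09 points (-6.99 to -3.62) in ChIP Norm and -5.79 points (-7.78 to -4.24) in ChIP Hyp. Of the distal regions 52 were under 50% unique, against 5 members. Other settings included regions at least 50% unique and regions with no tRNA gene within 200 bp. Over all 12 of them the difference from the distal regions ran from -6.88 to -2.46 points in ChIP Norm. In ChIP Hyp it ran from -9.45 to -2.24 points. Against promoter regions open in 3 libraries, the difference was 0.329 points (-0.0183 to 0.675) in ChIP Norm and 0.444 points (0.161 to 0.747) in ChIP Hyp.

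In all 34 members had a peak in either ChIP-seq library, 18 in both, 10 in ChIP Norm alone and 6 in ChIP Hyp alone. A tRNA gene lay within 200 bp in 7 of the 34, compared with 10 of all members, and 3 were under 50% unique. Also among the 34 were Gm10800, Gm10801, Gm10717, Gm21738 and a further region of Gm10722. These lay in the repeated sequence named above and were 58.6% to 91.1% unique. The strongest were repeated regions, with a −log10 q of 112 and 115 at Gm10800 in ChIP Norm and ChIP Hyp. Those with a tRNA gene nearby were Sacm1l, with 39.6 and 21.0, Prmt5 (an arginine methyltransferase gene, 30.9 and 18.9), Opn1sw (23.8 and 14.9), Ppp6r3 (22.6 and 11.7), Polr3e (a subunit of RNA polymerase III, 18.5 and 12.2), Polg (17.6 and 7.07) and Fbxo31 (14.8 in ChIP Norm). Of the others, Unk had 38.6 and 24.3, and Kmt2a, a histone methyltransferase gene, 21.6 and 22.3. Fn1, the fibronectin gene, had a peak in ChIP Hyp alone (4.54).

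The Tfcp2l1 consensus with at most 2 mismatches was in 5 of the 34 regions with a ChIP-seq peak (14.7%) and in 86 of the 3986 without (2.16%), a difference of 12.5 points (4.28 to 28.0). The regions with a peak had a median width of 467 bp and the others 417 bp. The 5 genes were Unk, Mgea5, Odc1, Xpo1 and Usp22. For 3 of them the site lay outside annotated exons, and 60 bp around it are printed here because they are the member promoters in which the factor's letters and its ChIP-seq peak met. They are the plus strand of GRCm38 at chr11:116030585-116030644, chr11:23255966-23256025 and chr11:61175365-61175424, and capitals mark the match to the consensus. Distances to the nearest ChIP-seq summit were taken from the middle of the match. In Unk the distance was 7 bp, for a match with 2 mismatches. In Xpo1, the main nuclear export receptor, it was 5 bp, with 1 mismatch in the best of 3 matches in the region. In Usp22, a deubiquitinase of the SAGA complex, it was 51 bp, with 1 mismatch.
Unk: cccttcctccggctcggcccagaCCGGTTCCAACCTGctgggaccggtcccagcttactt
Xpo1: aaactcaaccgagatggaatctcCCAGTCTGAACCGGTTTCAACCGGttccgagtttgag
Usp22: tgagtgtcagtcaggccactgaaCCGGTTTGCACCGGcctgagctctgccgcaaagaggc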

How the data were processed

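ATAC-seq was made in 4 conditions and Tfcp2l1 ChIP-seq in 2, with 1 library each, and groups follow the sample labels. The authors aligned ATAC-seq reads with Bowtie2 to GRCm38 (mm10), removed distant pairs, placed reads at the Tn5 site and ran MACS2 on each library at an FDR of 5%. ChIP-seq was done by ChIPmentation, with Bowtie and MACS2 per the labels. The sources used here do not give the build of these peaks, and GRCm38 was assumed. In the deposited files the fold enrichment is a ratio of pileup to local background made by the authors with MACS2. The deposited −log10 q is adjusted by the authors' MACS2 within a library. The −log10 p and the score column, as deposited, were not used. Read totals are not in these files, so depth is unknown. Fold and −log10 q depend on it and are printed per library as deposited, while patterns among libraries were called from ranks within a library.

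Peaks were merged and analysed with Python 3.11.15, pandas 2.3.3, numpy 2.4.6, scipy 1.17.1, pysam 0.24.0 and samtools 1.23.1. Genes were those of GENCODE vM21, and the TSS was the 5′ end of the gene record. Shares carry 95% exact Clopper-Pearson intervals and their differences Newcombe intervals. Conditions were not tested against each other. The motif, merging and interval steps were tested on simulated data. Uniqueness is the share of 49-base words found once in GRCm38. Members, gene lists and motifs were chosen with earlier results of these data known. Named are the 12 members with the highest lowest rank, the members with the largest rank gaps (4 for each direction of a split, 3 for each single library; the text gives part of them), up to 4 class 4 genes of each list, genes the paper names, members with a ChIP-seq peak and those at the limits. Named lists without values in the text are in the plot of gene lists. Mitochondrial regions were left out. Alternatives covered the TSS limit and definition, the peak threshold, equal numbers of peaks, the overlap, the windows, the file names and each library left out; those that leave out a library, repeats or tRNA genes, and 2 motif settings on peaks, were added after the data were seen.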

Additional observations from a re-analysis of the deposited data

How the results depend on the processing

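There were 248 values under other settings. Among the values of the main results 22 moved, 5 lost the threshold and 1 changed sign. A value moved when it left the interval of the main result or, for the number of members, which has no interval, when it passed a fixed ratio. Among the values of the single motifs 1 lost the threshold, 7 passed it and 1 changed sign. The number of members was 1333 with peaks at a −log10 q of at least 5, 1362 where the peaks of each library cover 50% of the region and 6349 without Hyp-Imm, within a range of 1333 to 6349. The share of genes in class 4 was 18.9% at a TSS limit of 500 bp, 20.9% at 2 kb, 22.1% with the TSS of any transcript, 6.95% at the threshold of 5, 18.7% with equal numbers of peaks, 18.4% where the peaks share a base, 7.02% at 50% cover, 21.3% without Norm-Sen, 22.0% without Hyp-Pro and 30.4% without Hyp-Imm. The split by time in culture held 29.2% of members at the threshold of 5, 28.5% at 50% cover and 32.4% with the conditions of the file names. Summits were upstream in 63.1% (500 bp limit), 73.4% (any transcript), 70.2% (threshold of 5), 62.6% (shared base), 67.5% (50% cover) and 52.3% (region centre). The ETS difference between genes open in all libraries and in all but 1 was -1.79 points at the threshold of 5, -1.70 with equal numbers, -0.635 in 200 bp upstream, -0.978 without Norm-Pro and -1.30 without Hyp-Pro, with intervals that include 0, and 0.133 without Hyp-Imm. The NRF1 difference was -0.464 in 200 bp upstream and 0.244 without Hyp-Imm. Differences whose interval came to exclude 0 were those of the HIF (-2.14), YY1 (-1.92) and ZNF143 (-0.637) sites at the threshold of 5, the CRE in 100 bp (-1.22), the TEAD site without Norm-Sen (-0.677) and the AP-1 site without Hyp-Pro (-0.908) or Hyp-Imm (-0.955). The causes were not tested. The CpG difference ranged from 42.4 to 54.4 points, that of the CCAAT box from 3.05 (100 bp around the TSS; 4.53 at the threshold of 5) to 10.6 (200 bp upstream) and that of the GC box from 7.47 to 13.6. No paired analysis was possible because each condition has 1 library. The lists hold only called peaks, so a promoter without a peak in 1 library cannot be told from one just under the threshold.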
